A study of Mus musculus with 2 samples.

Results

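The genes described here encode 8 proteins that write or read methylation on lysine 36 of histone H3 (H3K36), and were taken by symbol from the 26127 genes quantitated in mouse embryonic stem (ES) cells. The methyltransferases were Setd2, Nsd1, Whsc1, Whsc1l1 and Ash1l, and the readers were Psip1, Phf19 and Brpf1. RNA was sequenced from WT cells, which carry unmodified H3f3a and H3f3b on a 129S1/SvImJ background, and from G34R cells of the same strain. In G34R cells 1 copy of H3f3a, a gene for the histone variant H3.3, expresses a minigene with arginine in place of glycine 34 from its own promoter, while the other H3f3a copy and H3f3b are unmodified. Both cell types were under passage 20 and grew in serum with leukaemia inhibitory factor. The G34R cells had also been through gene targeting and Cre excision, which the WT cells had not, and the clone sequenced is not given in the sources used here. Each cell type was represented by 1 library, so there is no replicate error, no difference was tested, and genotype cannot be told apart from clone, culture or library.

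Methylation of H3K36 is laid down in gene bodies and between genes by enzymes that differ in how many methyl groups they add. Setd2 travels with elongating RNA polymerase II and is the main enzyme for trimethylation, whereas the Nsd family (Nsd1, Whsc1, also called Nsd2, and Whsc1l1, also called Nsd3) and Ash1l add the mono- and dimethyl states. Reader proteins recognise the methylated lysine through PWWP or Tudor domains and bring acetyltransferases, Polycomb complexes or other factors to it.

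The substituted residue lies close to the lysine on which all these proteins act. Codons 32 to 40 of both H3.3 genes are shown because they hold glycine 34 and lysine 36 (counted without the initiator methionine), with codons 34 and 36 in capitals. The reference sequences are from the mm9 (NCBIM37) annotation, at chr1:182741935-182741961 for H3f3a and chr11:115885201-115885227 for H3f3b, both in coding exon sequence on the minus strand.
H3f3a: actggaGGGgtgAAGaaacctcatcgt
H3f3b: accggcGGGgtgAAGaagcctcaccgc
The stretches differ at 5 of 27 bases, and share GGG at codon 34 and AAG at codon 36. H3f3a had 8.17 RPKM in the WT library against 4.89 RPKM in the G34R library, and H3f3b had 68.84 and 58.76 RPKM. RPKM per gene does not separate the mutant copy from the unmodified copy of H3f3a. The minigene replaced a native exon, so its transcript may not cover the merged gene length used for RPKM. The part of this in the lower H3f3a value was not tested.

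RPKM, a read density corrected for merged transcript length and library total, was the deposited unit and allows levels to be compared between genes, although a gene with many partly used exons reads lower on this scale. The depth of the libraries was estimated from the RPKM steps of short genes as 88.0 M reads in WT and 72.3 M in G34R cells. This corresponds to between 417 and 33444 estimated reads per gene for the members. Intervals below are 95% exact intervals from these estimated reads and cover counting error only. Changes are given as log2 (G34R/WT RPKM), and a gene was called higher or lower when it changed more than 2-fold with at least 0.25 RPKM in 1 library. The ES cell markers Pou5f1, Sox2, Esrrb, Tdgf1 and Dppa5a were between 50.05 and 707.95 RPKM in both libraries, and Klf4 had 25.14 RPKM in WT against 43.71 in G34R cells (log2 ratio 0.80). Nanog (127.07 in WT and 52.24 RPKM in G34R cells) and Zfp42 (180.3 and 16.4 RPKM) were lower in G34R cells past 2-fold. The summed RPKM of 4 primitive endoderm markers was 1.27 in WT and 3.27 in G34R cells, that of 3 mesoderm markers 0.52 and 2.09, and that of 5 fibroblast markers 1.48 and 0.94, with Postn at 0 in both. Of the primitive endoderm markers 3 of 4 were higher past 2-fold, and of the mesoderm markers Eomes was the 1 gene that passed 0.25 RPKM and was higher past 2-fold. Of 3 neuroectoderm markers, Sox1 was not analysed here, and Pax6 and Neurog2 summed to 0.13 and 0.03 RPKM, with Neurog2 at 0 in both.

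Of the 8 members, 1 changed more than 2-fold. Phf19, a Polycomb-associated reader, rose 2.76-fold in G34R cells, and none was lower past this limit. The methyltransferases differed between the libraries by 1.10-fold to 1.34-fold, some up and some down, with Ash1l furthest at a log2 ratio of 0.42. Among the 13366 genes that reached 0.25 RPKM in 1 library, 5.79% were higher and 9.64% lower past 2-fold, and 15.4% moved either way. A count of 1 in 8 is near the share that moved either way. All 8 members reached the limit of 0.25 RPKM. Their median log2 ratio was 0.07, with 4 above and 4 below 0, beside a median of -0.07 over the 13366 genes. Of those 13366 genes, 5954 were above and 7355 below 0. The plot of levels by gene shows the order within each library, which was nearly the same in both.

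**Figure D1:**
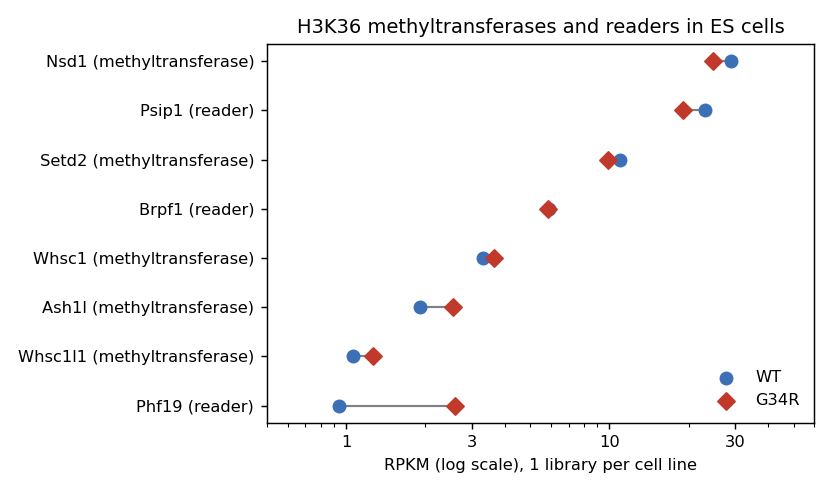
RPKM of each member (x axis, log scale) in the WT library (blue circles) and the G34R library (red diamonds), 1 library per cell line, ordered by WT level. Phf19 moves from 0.94 to 2.59 RPKM and from the last to the sixth place, while Nsd1, Psip1, Setd2, Brpf1 and Whsc1 keep places 1 to 5.

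Setd2 (ENSMUSG00000044791, chr9:110435101-110521137, plus strand, 23 merged exons) had 11.01 RPKM in the WT library against 9.90 RPKM in the G34R library. Its log2 ratio was -0.15 (counting interval -0.20 to -0.11), from about 10209 and 7542 reads. Of the 10728 genes with at least 1 RPKM in 1 library, 72.6% changed at least as far in either direction. The main trimethylating enzyme held place 3 in level among the members in both libraries, and its difference was smaller than that of most genes.

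Nsd1 (ENSMUSG00000021488, chr13:55311143-55419686, plus strand, 25 merged exons) was the highest of the members. It had 28.96 RPKM in WT against 24.70 RPKM in G34R cells, giving a log2 ratio of -0.23 (-0.25 to -0.21) from about 33444 and 23435 reads. Whsc1 (ENSMUSG00000057406, chr5:34163374-34240624, plus strand, 23 merged exons) had 3.32 and 3.65 RPKM, a log2 ratio of 0.14 (0.08 to 0.20). Whsc1l1 (ENSMUSG00000054823, chr8:26712073-26830139, plus strand, 27 merged exons) had 1.06 and 1.27 RPKM, a log2 ratio of 0.26 (0.16 to 0.36). The abundant member of the family was therefore slightly lower and the scarcer ones slightly higher in the G34R library.

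As shares of the summed RPKM of the Nsd family, which do not depend on how the libraries are scaled, Nsd1 made up 86.9% in WT cells and 83.4% in G34R cells. Whsc1 made up 9.96% and 12.3%, and Whsc1l1 3.18% and 4.29%. The summed RPKM of the family was 33.34 in WT cells and 29.62 in G34R cells. Nsd1 had 2.63 times the RPKM of Setd2 in WT cells and 2.49 times in G34R cells, so the balance between the main dimethylating and trimethylating genes moved little.

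Ash1l (ENSMUSG00000028053, chr3:88769734-88883295, plus strand, 27 merged exons), a Trithorax group enzyme that counters Polycomb silencing in development, had 1.90 RPKM in WT against 2.54 RPKM in G34R cells. Its log2 ratio of 0.42 (0.33 to 0.51) was the farthest from 0 of the methyltransferases. It was matched or exceeded by 37.6% of genes with at least 1 RPKM. Over the 5 methyltransferases the summed RPKM was 46.25 in WT cells and 42.06 in G34R cells, with Nsd1 at 62.6% and 58.7% of it and Setd2 at 23.8% and 23.5%.

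Among the readers, Phf19 (ENSMUSG00000026873, chr2:34749277-34769546, minus strand, 14 merged exons) is a Polycomb-like protein that joins Polycomb repressive complex 2, the H3K27 methyltransferase, and binds methylated H3K36 through its Tudor domain. It had 0.94 RPKM in the WT library and 2.59 RPKM in the G34R library, from about 417 and 943 reads. The log2 ratio was 1.46 (1.29 to 1.63), or 2.76-fold with a counting interval of 2.45-fold to 3.10-fold. A change of this size in either direction was seen in 5.51% of genes with at least 1 RPKM, and a rise of more than 2-fold in 5.31% of the 4861 genes whose higher library had 1 to 5 RPKM. With 1 added to every RPKM the log2 ratio was 0.89, under the 2-fold limit. The summed primitive endoderm and mesoderm markers were also higher in the G34R library, as given above, and their part in the rise of Phf19 was not tested.

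Psip1 (ENSMUSG00000028484, chr4:83101584-83132363, minus strand, 16 merged exons), also known as LEDGF, is a PWWP protein that holds partner proteins on transcribed chromatin. It had 23.01 RPKM in WT against 18.94 RPKM in G34R cells, giving a log2 ratio of -0.28 (-0.32 to -0.24), the lowest of the members. Of genes with at least 1 RPKM, 53.4% changed at least as far. Brpf1 (ENSMUSG00000001632, chr6:113257175-113274851, plus strand, 10 merged exons) is the PWWP scaffold of a histone acetyltransferase complex. It had 5.88 and 5.86 RPKM, a log2 ratio of -0.005 (-0.08 to 0.07), whose sign turned positive when the libraries were rescaled to the same sum or centred on the median gene. The counting interval of the ratio ran from 0.95-fold to 1.05-fold of the WT level.

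In the order of levels, the counting intervals of neighbouring genes did not overlap except for Whsc1l1 and Phf19 in WT cells (1.06 and 0.94 RPKM) and Phf19 and Ash1l in G34R cells (2.59 and 2.54 RPKM). These intervals hold no difference between cultures. Nsd1 lay above 96.2% of all genes in the WT library, and Phf19 above 71.2% of them in the G34R library. In the plot of all genes, Phf19 stands apart from the other members, which lie within the dense band around 0.

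**Figure D2:**
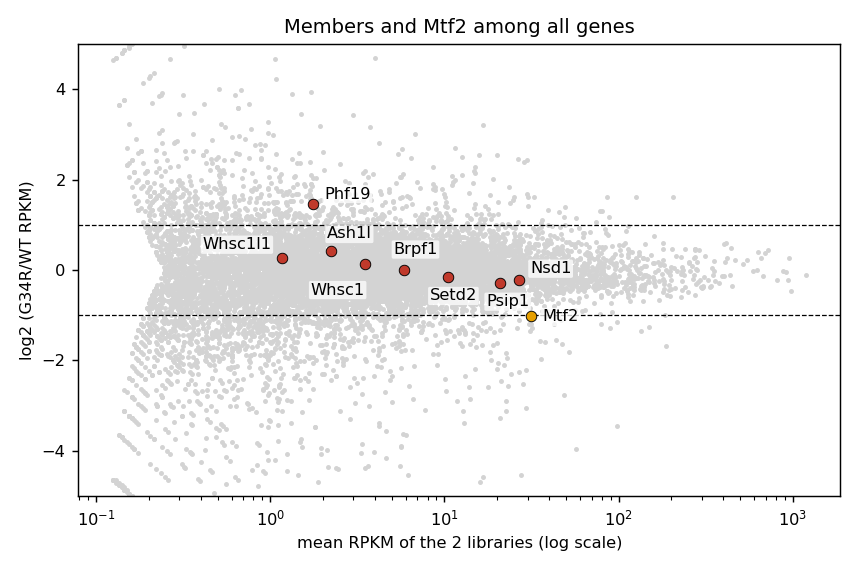
Log2 (G34R/WT RPKM) against the mean RPKM of both libraries (log scale) for the 13366 genes with at least 0.25 RPKM in 1 library (grey), the 8 members (red) and Mtf2 (orange). Dashed lines mark 2-fold, and 117 genes beyond the plotted range of 5 are not drawn. Phf19 (1.46) lies above the upper line and Mtf2 (-1.02) just under the lower one.

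The other genes of H3K36 methylation were drawn from 7 lists with 41 genes, all found, of which 39 passed 0.25 RPKM. Past 2-fold, 1 was higher, 1 was lower and the others lay between these limits, beside 5.79% higher and 9.64% lower of all genes. The median log2 ratio of the 39 genes was 0.06, with 23 above and 16 below 0, beside 5954 and 7355 of the 13366 genes. The genes past the limit were both from lists of readers, Mtf2 and Hdgfrp3. The lists go by gene name, and whether each protein acts on H3K36 was not checked.

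Mtf2 is, like Phf19, a Polycomb-like protein with a Tudor domain, and is the form of this family that is abundant in ES cells. It had 42.23 RPKM in WT against 20.86 RPKM in G34R cells, giving a log2 ratio of -1.02 (-1.06 to -0.98), so its counting interval reached across the 2-fold limit. Of the 1177 genes with 20 to 50 RPKM in the higher library, 4.67% were lower past 2-fold. When the libraries were rescaled to the same sum, or centred on the median gene, no gene of the lists was lower past 2-fold. Phf1, the remaining member of the family, had 0.69 and 1.06 RPKM, a log2 ratio of 0.62 (0.30 to 0.95).

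Within each library, Mtf2 made up 96.3% of the summed RPKM of the Polycomb-like family in WT cells and 85.1% in G34R cells. Phf19 went from 2.14% to 10.6%, and Phf1 from 1.57% to 4.32%. Mtf2 had 44.9 times the RPKM of Phf19 in WT cells and 8.05 times in G34R cells. The summed RPKM of the family was 43.86 in WT and 24.51 in G34R cells, so the added Phf19 and Phf1 RNA was small beside the lower Mtf2 RNA.

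**Figure D3:**
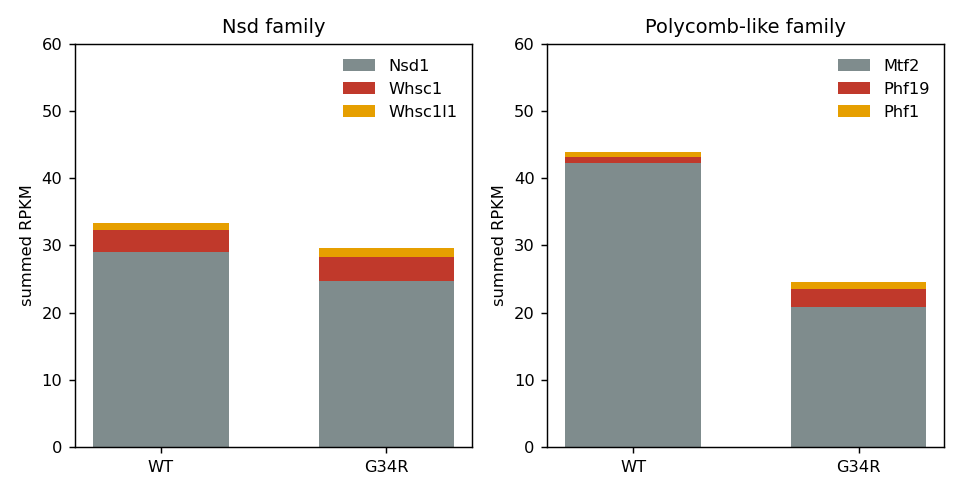
Summed RPKM (y axis, from 0) of the Nsd family (left) and the Polycomb-like family (right) in the WT and G34R libraries, stacked by gene. The Nsd family sums to 33.34 and 29.62 RPKM with Nsd1 as most of it, and the Polycomb-like family to 43.86 and 24.51 RPKM with a larger share of Phf19 in the G34R library.

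Hdgfrp3, a PWWP protein related to Hdgf and Psip1, had 0.71 RPKM in WT against 1.68 RPKM in G34R cells, giving a log2 ratio of 1.24 (1.10 to 1.39). With 1 added to every RPKM its log2 ratio was 0.65, under the 2-fold limit. It was the only 1 of 14 other PWWP proteins past 2-fold, and their median log2 ratio was 0.03. The most abundant of these were Msh6, which recognises DNA mismatches, with 143.41 and 98.39 RPKM, and Hdgf with 106.76 and 112.56 RPKM. Dnmt3a and Dnmt3b, the de novo DNA methyltransferases whose PWWP domains bind methylated H3K36, had log2 ratios of -0.29 and -0.09. Summed with Hdgf and Hdgfrp2, Psip1 and Hdgfrp3 belonged to a group of 160.33 RPKM in WT against 156.34 RPKM in G34R cells, in which Psip1 made up 14.4% and 12.1%.

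Among the 5 genes listed with the other Tudor and chromodomain readers, the highest were Morf4l2 (43.71 and 38.93 RPKM) and Mtf2, described above. The place of Morf4l2 in this list does not show that it reads H3K36. In the acetyltransferase complexes that Brpf1 joins, 0 of 6 partners passed 2-fold and the median log2 ratio was -0.10. The catalytic subunit Myst4, also called Kat6b, came closest, with 19.53 RPKM in WT against 9.83 RPKM in G34R cells and a log2 ratio of -0.99 (-1.03 to -0.95). The other catalytic subunits, Myst2 (22.61 and 21.95 RPKM) and Myst3 (6.47 and 6.90 RPKM), had log2 ratios of -0.04 and 0.09. Brpf1 held 32.8% of the summed RPKM of Brpf1, Brd1 and Brpf3, the alternative scaffolds of these complexes, in WT cells and 31.7% in G34R cells.

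Of the 4 genes listed as partners of Setd2 and of elongation, all were above 0 and none passed 2-fold, with a median log2 ratio of 0.16. Of all 13366 genes past the filter, 5954 were above 0. Polr2a, the largest subunit of RNA polymerase II, had 22.87 and 31.62 RPKM, and Hnrnpl, an RNA-binding partner of Setd2, had 47.36 and 52.16 RPKM. The Psip1 partners Men1 (8.98 and 8.94 RPKM) and Mll1 (3.40 and 4.53 RPKM) were within 2-fold. The 3 genes listed as other methyltransferases that passed the filter had log2 ratios of 0.12 to 0.36. Setd5 (11.39 and 13.88 RPKM) and Smyd2 (3.91 and 4.25 RPKM) were the most abundant, and RNA levels do not show their activity on H3K36. Prdm9, the meiotic enzyme, was under the filter with 0.18 and 0.11 RPKM. The list of enzymes that remove the mark had 5 of 6 genes past the filter, none past 2-fold, and a median log2 ratio of -0.20. The gene under the filter was Kdm4d, with 0.05 and 0.01 RPKM. The authors name KDM4A, KDM4B and KDM4C, and not KDM4D, as the main enzymes that remove trimethylation of H3K36. The log2 ratios of the 5 genes past the filter ran from -0.52 (Kdm4b, 6.54 and 4.57 RPKM) to 0.47 (Kdm2b, 4.58 and 6.33 RPKM). Kdm4c (14.37 and 12.37 RPKM) and Kdm4a (8.92 and 9.53 RPKM) were the most abundant of these enzymes.

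**Figure D4:**
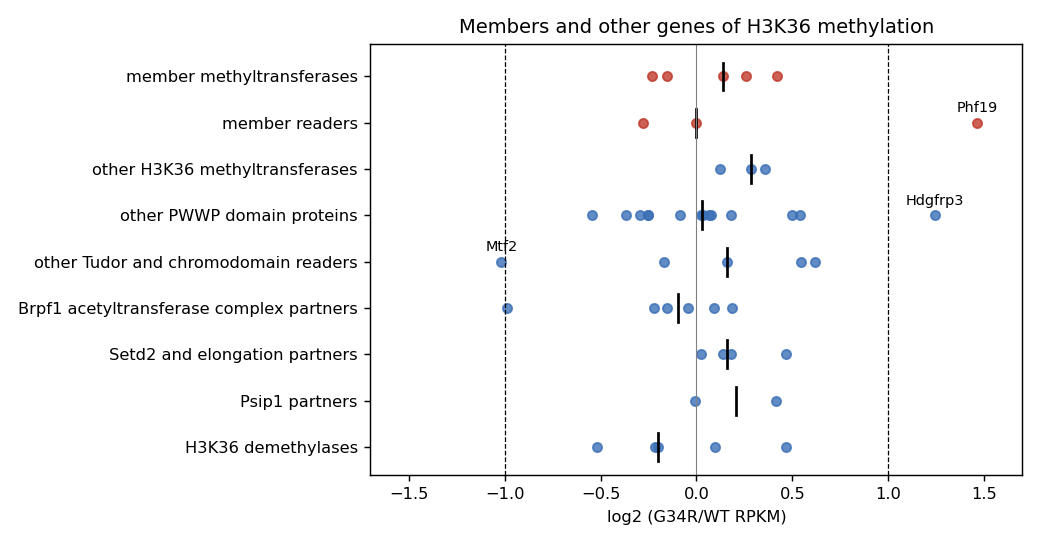
Log2 (G34R/WT RPKM) of the members (red) and of the other genes of H3K36 methylation that passed 0.25 RPKM (blue), 1 point per gene, with the median of each group as a black bar and 2-fold as dashed lines. Phf19 and Hdgfrp3 lie to the right of 2-fold and Mtf2 to the left, and the group medians lie between -0.20 and 0.29.

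Because whole chromosomes can differ between ES cell lines, each member was set beside the 20 nearest genes with at least 1 RPKM in 1 library. For Phf19 these reached 1.76 Mb away, had a median log2 ratio of -0.12 and ranged from -0.68 to 0.86, so 0 of 20 were at its level. Whsc1l1 lies on chromosome 8, whose 594 other genes had a median of 0.36 against -0.05 over all 10728 genes with at least 1 RPKM. The 20 genes nearest to Whsc1l1 had a median of -0.07, with 9 above 0, beside 4824 above 0 of the 10728 genes. Whether the chromosome 8 difference had a part in the ratio of Whsc1l1 was not tested. For the chromosomes of the other members the medians ran from -0.13 (chromosome 2, Phf19) to -0.05 (chromosome 9, Setd2). Whsc1 (0.14) lay among genes with a median of -0.23, of which 6 were above 0, and Ash1l (0.42) among genes with a median of -0.02, of which 3 were at or above it. For Setd2, Nsd1, Psip1 and Brpf1 the medians of the nearest genes were 0.01, 0.03, -0.10 and -0.11. The nearest genes of Psip1 were spread over 8.76 Mb.

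**Figure D5:**
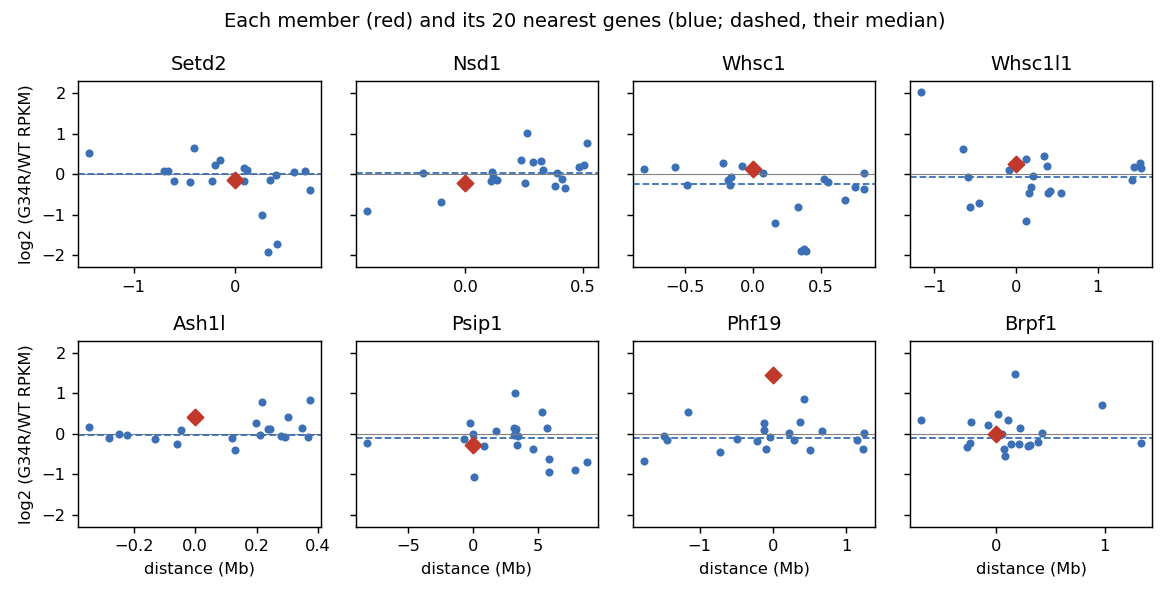
Log2 (G34R/WT RPKM) of each member (red diamond) and its 20 nearest genes with at least 1 RPKM in 1 library (blue points) against the distance between gene starts in Mb. The dashed line is the median of the 20 genes, which lies between -0.23 and 0.03, and Phf19 (1.46) lies above all of its neighbours.

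Annotated exons of other genes overlapped none of the members on the same strand. On the opposite strand, Whsc1 shared 1040 bp with Whsc2, Psip1 483 bp with Snapc3 and Brpf1 255 bp with Gm15492, and outside the members Mtf2 shared 395 bp with Tmed5. The libraries were stranded and counted by strand, and Phf19, Setd2, Nsd1, Whsc1l1 and Ash1l had no overlap on either strand.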

How the data were processed

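Total RNA (500 ng, 12 amplification cycles) of both cell types was read as stranded 50 bp single ends. The authors mapped these to mm9 with STAR (2.4.2a), counted primary alignments by strand over merged mRNA isoforms in Seqmonk, and deposited RPKM to 2 decimals. RPKM is divided by each library's total, so a change in RNA per cell shared by all genes is not seen. A change in some abundant RNAs shifts the values of all other genes.

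Ratios were taken after raising RPKM below 0.01 to 0.01. No test was possible with 1 library per cell line. Depth was taken as the total that placed the RPKM of short single-exon genes (below 800 bp and 6 reads, 75 and 67 genes) on whole reads, for 100% of them within rounding. Reads per gene are estimates from RPKM, merged exon length (GENCODE M1, mm9) and depth. Counting intervals are Clopper-Pearson for ratios and exact Poisson for levels. The depth estimate was tested on simulated data.

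The members and lists were chosen with earlier results of these data known. Named genes were the members, both H3.3 genes, and per list the genes past 2-fold and the 2 with the highest mean RPKM. Others (Phf1, Myst3, Dnmt3a, Dnmt3b, Prdm9, Brd1, Brpf3, Hdgfrp2, Kdm4b, Kdm4d, Kdm2b and the marker genes named) were chosen after their values were seen. No gene was named for a like pattern, since 2 libraries give 1 ratio. Alternatives were other pseudocounts, scalings, filters and fold limits. Python 3.11.15, NumPy 2.4.6, pandas 2.3.3, SciPy 1.17.1 and matplotlib 3.10.9 were used.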

Additional observations from a re-analysis of the deposited data

How the results depend on the processing

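No paired analysis was possible because each cell line had 1 library, and for the same reason no library could be left out. With 1 added to every RPKM, 0 members and 0 other H3K36 genes were past 2-fold in either direction. Of the 13366 genes, 196 were then higher and 356 lower. The log2 ratio of Phf19 was then 0.89. Rescaling to the same sum raised the ratio of each gene above 0 RPKM in the G34R library by 0.05. Centring on the median gene raised every ratio by 0.05. Each of these scalings left 0 other H3K36 genes lower past 2-fold, where Mtf2 had been the 1 gene. Both turned the sign of Brpf1 alone among the members. With no filter on low RPKM, 1445 of all 26127 genes were higher and 2877 lower. Of the 41 other listed genes 1 was then higher and 2 were lower. The lower gene added was Kdm4d, with about 13 reads in WT and 2 in G34R cells. Its G34R value of 0.01 RPKM was at the floor used for ratios. At least 1 RPKM in 1 library left 439 higher and 689 lower of 10728 genes. A limit of 1.5-fold gave 1780 higher and 2422 lower of 13366 genes, and 2 higher and 2 lower among the 39 other H3K36 genes. Phf19 was the 1 member past the limit under every one of these settings except 1 added to every RPKM. Addition of 0.01 moved no count by more than 1.5 times. Apart from Phf19, the 8 member values that moved past their counting interval changed by at most 0.13 on the log2 scale. The median over members moved by at most 0.07 on the log2 scale under the settings tried. Without replicates the spread between cultures is unknown, and it is not covered by the counting intervals.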
